A study of Bos taurus with 8 samples.

Results

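Genes that mark tendon cells and stromal progenitor cells were examined in bovine articular chondrocytes of the superficial and deep zones. The 10 genes were *SCX*, *MKX* and *TNMD*, which mark the tendon lineage, *TNC* and *POSTN*, which encode matricellular proteins, the platelet-derived growth factor (PDGF) receptors *PDGFRA* and *PDGFRB*, and the surface markers *NT5E*, *ENG* and *THY1*. They were found in the deposited count table by gene name, and 9 of the 10 were matched among its 24596 genes. No row was matched to *NT5E*, which is not analysed here, and 8 of the 9 matched genes had enough counts to be tested. *TNMD* did not.

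Cartilage came from the knee joints of wild-type calves 1 to 2 weeks old. Chondrocytes of the superficial zone (SZCs) and of the deep zone (DZCs) were released with enzymes from slices of the same cores and grown in medium with serum for 3 days before RNA-Seq, with 2 libraries per zone. All libraries therefore describe cultured cells and not intact tissue. The study calls them biological duplicates, and slices were collected by joint, but whether a library held the cells of a single animal is not given in the sources used here.

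Tendon and articular cartilage both contain cells that descend from limb and joint progenitors, and the transcription factor Scleraxis (*SCX*) is a marker of tendon and ligament progenitors. Mohawk (*MKX*) is a homeobox factor of the tendon lineage, and Tenomodulin (*TNMD*) is a membrane glycoprotein of mature tendon cells and a relative of the cartilage protein Chondromodulin (*CNMD*). Tenascin-C (*TNC*) and Periostin (*POSTN*) are secreted proteins that bind integrins and are abundant in tissues that form or repair. CD73 (*NT5E*), Endoglin (*ENG*, CD105) and CD90 (*THY1*) are used together to define mesenchymal stromal cells in culture, and the PDGF receptors mark fibroblasts, stromal progenitors and, in the case of *PDGFRB*, mural cells of vessels.

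Library totals lay between 19918970 and 21890549 counts. DZC replicate 1 stood apart from the other 3 libraries. It had the fewest genes with a count (14683, against 15842 to 16058), the largest share of *COL2A1* (24.5% of its counts, against 6.31% to 12.9%) and the lowest scaling factor (0.735, against 1.08 to 1.14) by the trimmed mean of *M* values (TMM), which corrects for such differences in composition. Levels are given as TMM-normalized CPM (each count divided by the scaled size of its library), and a floor of 3 counts per library corresponded to between 0.129 and 0.187 CPM. No transcript lengths were applied, so levels are compared between libraries and not between genes. The chondrocyte label was checked against 13 cartilage genes, and all 13 had enough counts to be tested, with at least 435 counts of each in every library. In bulk RNA, fewer cells that express a gene cannot be told apart from less of its RNA per cell.

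The cells of both zones expressed most of these markers. Of the 9 matched genes, 8 had at least 43 counts in every library, and *TNMD*, a marker of mature tendon cells, had 10 or fewer. SZCs were compared with DZCs by edgeR's exact test over all 12857 genes that passed its filter on low counts, with a false discovery rate (FDR) threshold of 0.05. In that comparison 0 of the 8 tested markers passed the threshold, against 2.93% of all tested genes. At an unadjusted p-value below 0.05 there were 3 of the 8, *TNC*, *PDGFRB* and *ENG*, against 9.09% of all tested genes. DESeq2 and the quasi-likelihood test of edgeR (without a block that pairs same-numbered libraries) also called 0 of the 8, and over all tested genes they called 3.09% and 0%. They put 3 and 2 (*MKX* and *ENG*) of the 8 at an unadjusted p-value below 0.05, against 9.08% and 8.76% of all tested genes. With a replicate block, the quasi-likelihood test called 1 of the 8, *POSTN* (log2 fold change -1.90, FDR 0.0417), against 2.70% of all tested genes. The levels of 5 of the 8 markers did not overlap between the zones, against 41.5% of all tested genes. A p-value that misses the threshold does not show that the zones were alike, and the interval of each difference is given with its gene.

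**Figure D1:**
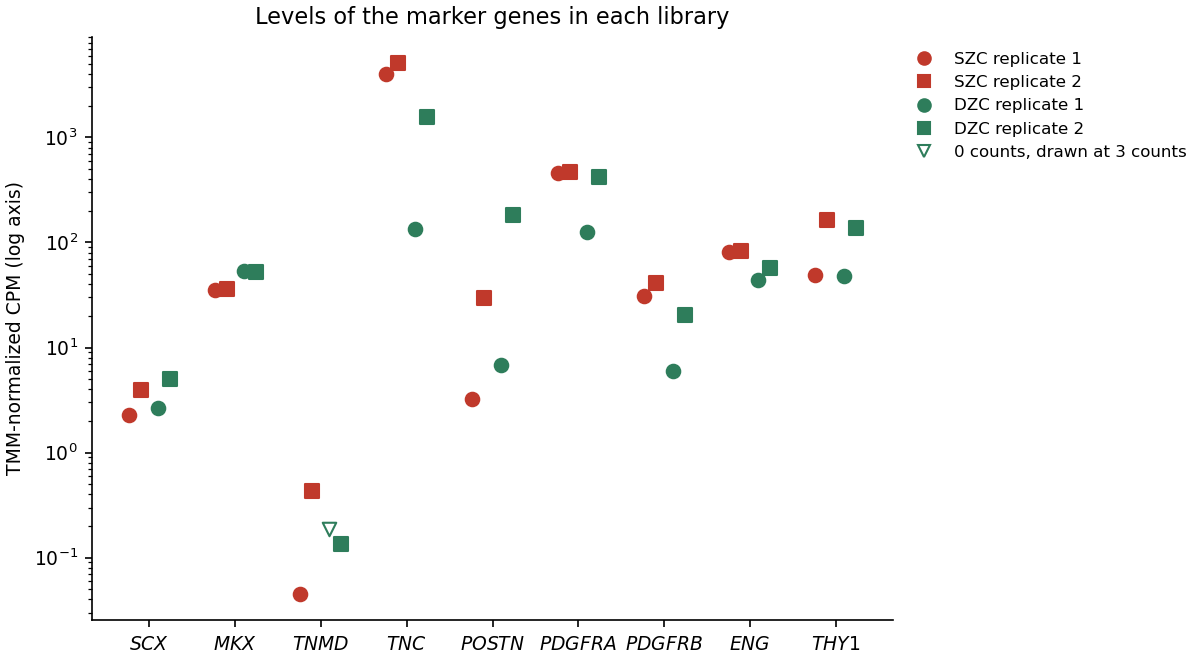
TMM-normalized CPM of the 9 matched markers (log axis) in the 2 SZC libraries (red) and the 2 DZC libraries (green), with circles for replicate 1 and squares for replicate 2. *MKX* and *ENG* lie close together within each zone, whereas *POSTN* runs from 3.27 to 181 CPM, with replicate 2 above replicate 1 in both zones.

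*SCX* (ENSBTAG00000009816) had 50 and 92 counts in SZC replicates 1 and 2 against 43 and 111 in DZC replicates 1 and 2. These counts correspond to 2.27 and 3.96 CPM in SZCs and 2.68 and 4.98 CPM in DZCs. The zones overlapped, and in each zone replicate 2 lay above replicate 1. The exact test of edgeR put the log2 fold change of SZCs over DZCs at -0.30 with a standard error of 0.66 and an FDR of 1, with a 95% interval from -1.59 to 0.99. Its sign turned when either SZC replicate 1 or DZC replicate 2 was left out (0.05 and 0.24). In the RefSeq annotation of the cow (assembly ARS-UCD2.0), *SCX* lies wholly within the span of *BOP1*, a ribosome biogenesis gene. The authors counted reads without regard to strand, so reads of exons that overlap on opposite strands cannot be separated. Whether the exons of *SCX* and *BOP1* overlap, and on which strands, is not given here. *BOP1* had 606 and 493 counts in SZCs against 523 and 604 in DZCs, and its log2 fold change of SZCs over DZCs, -0.29, was close to the -0.30 of *SCX*. Once scaled, *BOP1* was lower in replicate 2 than in replicate 1 of each zone (0.77-fold and 0.83-fold), whereas *SCX* was higher. The part of *BOP1* reads in the *SCX* counts was not tested.

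*MKX* (ENSBTAG00000007678) was at 35.2 and 35.9 CPM in SZCs and at 54.1 and 52.6 CPM in DZCs. The DZC libraries both lay above the SZC libraries, and the replicates of each zone were nearly equal. By edgeR's exact test the zones differed by -0.58 on the log2 scale (SZCs over DZCs), with a standard error of 0.33 and an FDR of 0.669, which is 1.5-fold higher in DZCs, with a 95% interval from -1.23 to 0.06. Over the 4 fits that each leave out a library it stayed between -0.60 and -0.56. Scaling by library totals alone gave -0.28 and moved the median over all tested genes from -0.04 to 0.26.

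*TNMD* (ENSBTAG00000021059) had 1 and 10 counts in the SZC libraries against 0 and 3 in the DZC libraries. Of these, SZC replicate 2 alone lay above 3 counts, at 0.43 CPM (95% exact Poisson interval 0.21 to 0.79 CPM, covering counting error only). By the same exact Poisson interval, the 0 counts in DZC replicate 1 allow up to 0.23 CPM. *TNMD* was left out of the test for its low counts, and no zone difference could be detected at this depth. Its relative *CNMD*, a gene of cartilage, was at 551 and 663 CPM in SZCs and at 7111 and 2238 CPM in DZCs. *CNMD* was higher in DZCs, and SZCs over DZCs came to -2.95 ± 0.61 (SE) on the log2 scale (FDR 0.000917 by edgeR's exact test). That call was lost without SZC replicate 1 (FDR 0.254) and without SZC replicate 2 (FDR 0.0806), by the same edgeR test, and in the quasi-likelihood test of edgeR with the replicate block (FDR 0.0793). For the 13 cartilage genes, *CNMD* among them, the median log2 fold change of SZCs over DZCs was -1.10, against -0.04 over all tested genes, and 11 were below 0. Those past the threshold of edgeR's exact test were 2, both higher in DZCs, where 0.700% of all tested genes were called. They were *CNMD* and *MATN3*, a cartilage matrix protein at 48.5 and 77.5 CPM in SZCs and at 186 and 333.5 CPM in DZCs (log2 fold change -2.04, FDR 0.00212). For *MATN3* the FDR was 0.78 without SZC replicate 1, 0.0962 without SZC replicate 2 and 0.109 under scaling by library totals, by the same edgeR test.

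*TNC* (ENSBTAG00000000575) had 88005 and 117782 counts in SZCs against 2170 and 34993 in DZCs. Its levels were 3998 and 5075 CPM in SZCs and 135 and 1568 CPM in DZCs. Both SZC libraries lay above both DZC libraries, and DZC replicate 1 lay far below the other 3. The estimate for SZCs over DZCs was 2.41 on the log2 scale (SE 0.98), which is 5.33-fold, with a 95% interval from 0.48 to 4.34 on the log2 scale, and the FDR was 0.354 by edgeR's exact test (unadjusted p = 0.0237). The same-numbered libraries differed by 29.6-fold for replicate 1 and by 3.24-fold for replicate 2. Without DZC replicate 1 the log2 fold change was 1.53 (FDR 0.00343), and without DZC replicate 2 it was 5.09 (FDR 1.7e-25), both by edgeR's exact test. These fits estimate the spread from the SZC pair alone and assume that the lone DZC library varies in the same way. They called 6.68% and 21.5% of all tested genes, against 2.93% with all libraries.

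*POSTN* (ENSBTAG00000012409) had 72 and 692 counts in SZCs against 110 and 4037 in DZCs, which is 3.27 and 29.8 CPM in SZCs and 6.84 and 181 CPM in DZCs. The zones overlapped, and replicate 2 was the higher library in each of them. Replicate 2 exceeded replicate 1 by 9.06-fold in SZCs and by 26.3-fold in DZCs, larger differences than in 99.6% and 99.4% of tested genes. On the log2 scale SZCs minus DZCs came to -2.50, with a standard error of 1.39 and an FDR of 0.749 from the exact test of edgeR, with a 95% interval from -5.23 to 0.22. Within same-numbered libraries it was -1.06 for replicate 1 and -2.60 for replicate 2. The sign turned without DZC replicate 2 (1.30, FDR 0.388), and the threshold was passed without DZC replicate 1 (-3.45, FDR 0.00338) and without SZC replicate 2 (-4.84, FDR 0.0326, in a fit that called 1.26% of tested genes), by edgeR's exact test in each case. It was also passed in the quasi-likelihood fit with the replicate block given above. The log2 ratio of *TNC* to *POSTN* counts within a library was 10.26 and 7.41 in SZCs and 4.30 and 3.12 in DZCs. The SZC and DZC values of that ratio did not overlap, as those of *TNC* alone did not. The ratios of *SCX* to *MKX* and of *ENG* to *THY1* did overlap between the zones. No share over other pairs of genes is given here.

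Some markers of other cells were also highest in DZC replicate 2. Of 8 bone and hypertrophic genes, *IBSP*, *SP7* and *MMP13* were counted 268, 140 and 468 times in DZC replicate 2 and at most 8 times in any other library. *ALPL* had 10 and 5 counts in SZCs and 1 and 445 in DZCs (log2 fold change -4.88, FDR 0.301 by edgeR's exact test, unadjusted p = 0.0187), and *COL10A1* had 23 and 18 in SZCs and 0 and 221 in DZCs. By contrast, *BGLAP* and *DMP1* were at 6 counts or fewer in every library. The summed level of the 8 was 110 and 104 CPM in SZCs and 19.1 and 269.9 CPM in DZCs. Most of that sum was *SPP1*, which encodes osteopontin, at 108 and 102 CPM in SZCs and at 18.9 and 201 CPM in DZCs. *ACTA2*, a smooth muscle actin of mural cells and myofibroblasts, was at 11.5 and 93.2 CPM in SZCs and at 53.2 and 311 CPM in DZCs, so it was also higher in replicate 2 of each zone. The part of such cells in the levels of *POSTN* was not tested.

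*PDGFRA* (ENSBTAG00000007173), which encodes the PDGF receptor alpha, was at 456 and 465 CPM in SZCs and at 126 and 421 CPM in DZCs. DZC replicate 1 was the low library, and DZC replicate 2 lay only a little below the SZC libraries. The exact test of edgeR put the log2 fold change of SZCs over DZCs at 0.75 with a standard error of 0.60 and an FDR of 0.893, with a 95% interval from -0.43 to 1.94. Without DZC replicate 1 it was 0.13 (FDR 0.958), and without DZC replicate 2 it was 1.89 (FDR 1.05e-06 by edgeR's exact test). The fold difference between same-numbered libraries was 3.61 for replicate 1 and 1.1 for replicate 2.

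*PDGFRB* (ENSBTAG00000002804), which encodes the PDGF receptor beta, was at 30.8 and 40.8 CPM in SZCs and at 6.03 and 20.6 CPM in DZCs. The zones did not overlap, and DZC replicate 1 was again the lowest library. The estimate for SZCs over DZCs was 1.42 on the log2 scale (SE 0.62), which is 2.68-fold, with a 95% interval from 0.21 to 2.63 on the log2 scale, and the FDR was 0.367 by edgeR's exact test (unadjusted p = 0.0251). It was 0.80 without DZC replicate 1 (FDR 0.145) and 2.59 without DZC replicate 2 (FDR 7.68e-10 by edgeR's exact test). The log2 ratio of *PDGFRA* to *PDGFRB* counts was 3.89 and 3.51 in SZCs against 4.39 and 4.36 in DZCs, so it varied much less between the DZC libraries than either receptor did alone.

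Of the 4 PDGF ligands, all were tested and 0 passed the FDR threshold by edgeR's exact test, with 0 at an unadjusted p-value below 0.05, and 0 of 4 passed in the quasi-likelihood test and in DESeq2, with 1 each at an unadjusted p-value below 0.05. These tests called 2.93%, 0% and 3.09% of all tested genes, and 9.09%, 8.76% and 9.08% were at an unadjusted p-value below 0.05. *PDGFA*, a ligand of the alpha receptor, was at 27.3 and 21.6 CPM in SZCs and at 36.8 and 41.1 CPM in DZCs, which is -0.67 ± 0.35 (SE) on the log2 scale (FDR 0.6). *PDGFD*, a ligand of the beta receptor, had 71 and 83 counts in SZCs against 0 and 26 in DZCs, so that DZC replicate 1 was low for the ligand and the receptor alike.

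*ENG* (ENSBTAG00000008997) encodes Endoglin, a co-receptor for ligands of the TGF-β family. It was at 81.5 and 82.7 CPM in SZCs and at 43.9 and 57.5 CPM in DZCs. The zones did not overlap, and the SZC libraries were nearly equal. The estimate for SZCs over DZCs was 0.70 on the log2 scale (SE 0.35), which is 1.62-fold, with a 95% interval from 0.02 to 1.38 on the log2 scale, and the FDR was 0.52 by edgeR's exact test (unadjusted p = 0.0459). The threshold was passed only without DZC replicate 2 (0.93, FDR 0.0145), among the 12 alternatives tried. Endothelial cells also carry Endoglin, and 5 of 8 endothelial markers had enough counts to be tested. Of the 8, *ERG*, a factor also known in articular chondrocytes, was higher in SZCs and the only gene called (1 of 5, against 2.93% of all tested genes), at 90.9 and 67.7 CPM against 27.5 and 20.5 CPM (log2 fold change 1.73, FDR 0.000769 by edgeR's exact test, but 0.615 without SZC replicate 1 and 0.0881 without SZC replicate 2). The other 7, *PECAM1* and *CDH5* among them, summed to 5.72 and 12.9 CPM in SZCs and to 3.92 and 8.16 CPM in DZCs, with *KDR*, *CDH5* and *EMCN* at 0 in DZC replicate 1. The median log2 fold change of the 5 tested was 1.27, and 0.82 without *ERG*. *KDR* had 35 and 83 counts in SZCs against 0 and 15 in DZCs (log2 fold change 2.88, FDR 0.435 by edgeR's exact test, unadjusted p = 0.0337). *VWF* went the other way without overlap, at 2.23 and 3.23 CPM in SZCs and at 3.36 and 4.48 CPM in DZCs (log2 fold change -0.52, FDR 0.986 by edgeR's exact test). Of the 5 tested, 4 had a log2 fold change above 0 and 1 below. The part of endothelial cells in the level of *ENG* was not tested.

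*THY1* (ENSBTAG00000019627), which encodes a small surface glycoprotein of fibroblasts and stromal cells, was at 48.9 and 162.5 CPM in SZCs and at 48.5 and 136.6 CPM in DZCs. The zones overlapped and were nearly equal at each replicate number, with same-numbered libraries differing by 1.01-fold and 1.19-fold. Replicate 2 exceeded replicate 1 by 3.32-fold in SZCs and by 2.82-fold in DZCs, a larger difference than in 97.6% and 87.2% of tested genes. By edgeR's exact test the zones differed by 0.19 on the log2 scale (SZCs over DZCs), with a standard error of 0.73 and an FDR of 1, with a 95% interval from -1.23 to 1.62. Its sign turned without SZC replicate 2 (-0.92) and without DZC replicate 1 (-0.37). In the RefSeq annotation a long non-coding RNA gene spans the whole of *THY1*, and no row of the count table was matched to it by name.

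**Figure D2:**
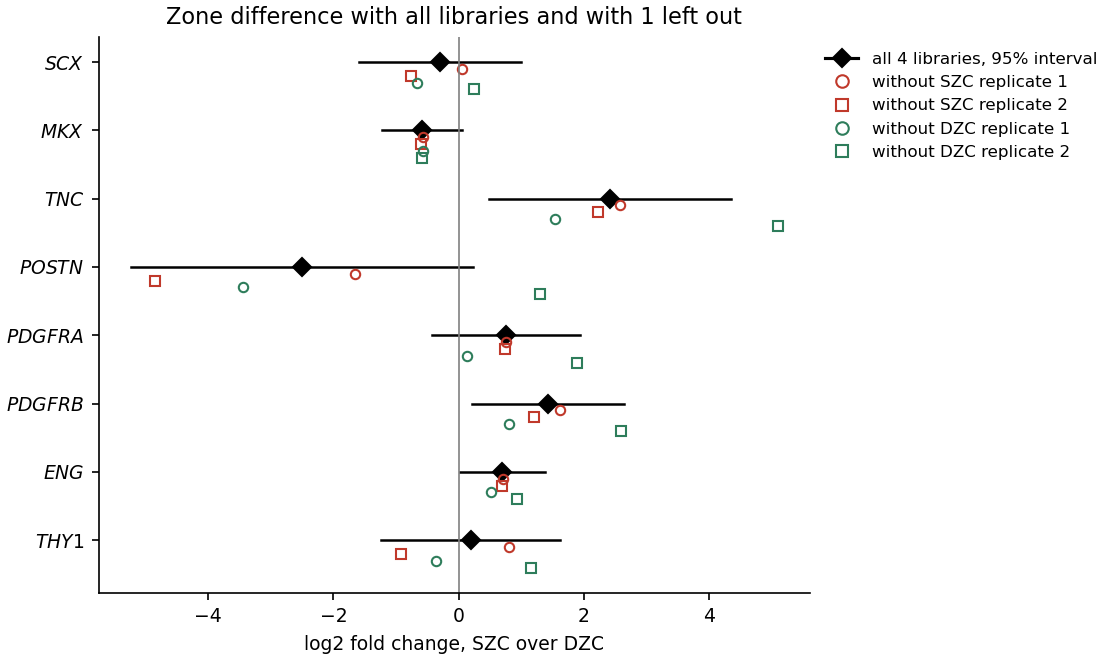
Log2 fold change of SZCs over DZCs for the 8 tested markers with all 4 libraries (diamonds, bars for the 95% interval) and from fits that omit a single library (open symbols). The estimates of *MKX* stay together, those of *TNC* spread from 1.53 to 5.09, and those of *SCX*, *POSTN* and *THY1* fall on both sides of 0.

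The markers were then described by which libraries were high or low, in patterns chosen after the values were seen and therefore given without a test. *TNC*, *PDGFRA* and *PDGFRB* were at least 2-fold lower in DZC replicate 1 than in each of the other 3 libraries, which makes 3 of 8 tested markers, and 9.61% of all tested genes did the same. *POSTN* and *THY1* were at least 2-fold higher in replicate 2 than in replicate 1 in both zones, which makes 2 of 8, against 3.55% of all tested genes. *MKX* and *ENG* differed by less than 1.5-fold between replicates in both zones, which makes 2 of 8, against 46.0% of all tested genes. *SCX* met none of these descriptions, with replicate 2 above replicate 1 by 1.74-fold in SZCs and 1.85-fold in DZCs. The DZC pair was the more divergent over all tested genes, with a median absolute log2 ratio between replicates of 0.565, against 0.245 for the SZC pair. Whether replicate numbers mark a shared joint, day or culture is not given in the sources used here.

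**Figure D3:**
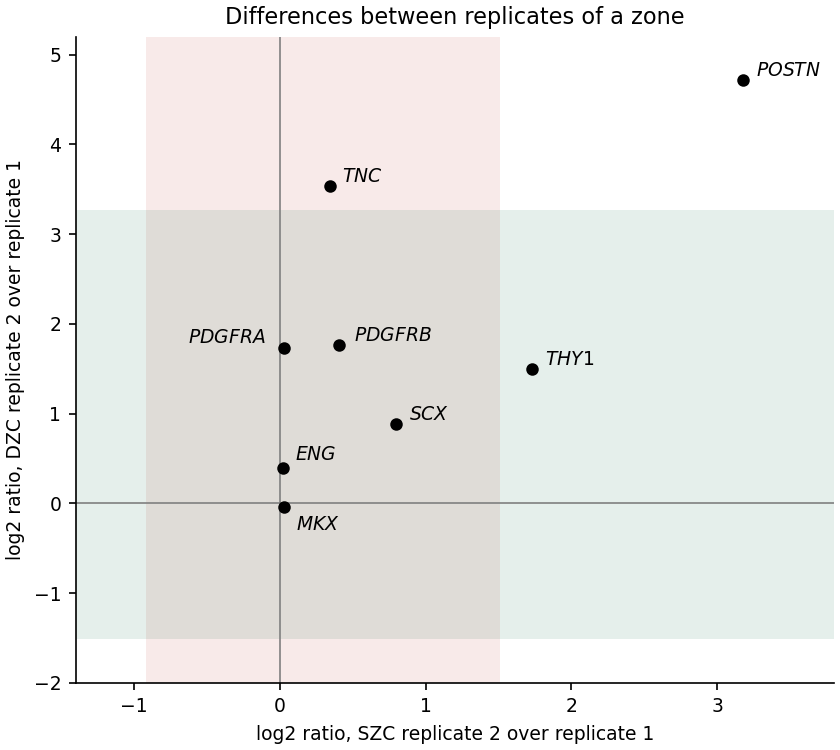
Log2 ratio of replicate 2 to replicate 1 in SZCs (horizontal axis) and in DZCs (vertical axis) for the 8 tested markers. The red and green bands span the central 95% of all tested genes in SZCs and in DZCs. *POSTN* lies outside both bands, *TNC* outside the DZC band and *THY1* outside the SZC band, whereas *MKX* lies near the origin.

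Among 25 other genes of tendon and ligament, 23 were tested, with 5 higher in SZCs and 0 in DZCs by edgeR's exact test, against 2.23% and 0.700% of all tested genes. The median log2 fold change of the 23 was 0.95, against -0.04 over all tested genes, with 17 above 0 and 6 below. Of the 17, *EGR2* (55 and 11 counts in SZCs against 3 and 4 in DZCs) passed the filter on low counts only through the SZC libraries. The 5 called were *THBS4*, *ABI3BP*, *CILP*, *COL14A1* and *DCN*. *COL14A1*, which encodes a collagen that associates with fibrils, was at 946 and 857 CPM in SZCs and at 111 and 209.5 CPM in DZCs (log2 fold change 2.49 ± 0.45 SE, FDR 2.74e-05 by edgeR's exact test). Decorin (*DCN*), a proteoglycan that binds collagen fibrils, was at 1029 and 672 CPM in SZCs and at 114 and 269.8 CPM in DZCs (log2 fold change 2.15 ± 0.54 SE, FDR 0.00804 by the same edgeR test, but 0.427 without SZC replicate 1 and 0.062 in the quasi-likelihood test of edgeR with the replicate block). The names of *CILP* and *ABI3BP* were blank in the count table and could be filled only from the authors' table of genes that differed between the zones, so these 2 entered the list because they differed. The FDR of *CILP* was 0.245 without SZC replicate 1 and 0.177 without SZC replicate 2 by edgeR's exact test. That of *ABI3BP* was 0.151 in DESeq2 and 0.0985 by edgeR's exact test under scaling by library totals. Without them 3 of 21 were called, and the median log2 fold change was 0.93.

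Other matrix genes of tendon did not pass the threshold. *COL3A1*, a fibrillar collagen, was at 8200 and 7692 CPM in SZCs and at 1540 and 4306 CPM in DZCs (log2 fold change 1.44, FDR 0.256 by edgeR's exact test). *COL1A1*, the main collagen gene of tendon, was at 3956 and 9205 CPM in SZCs and at 1080 and 5721 CPM in DZCs (log2 fold change 0.95, FDR 0.928), and as with *THY1* and *POSTN* the higher library of each zone was replicate 2. *EGR1*, a transcription factor that acts on tendon genes and is quickly induced by handling of cells, was at 519 and 62.6 CPM in SZCs and at 113 and 26.6 CPM in DZCs, so that replicate 1 was the higher library of each zone. Among the 6 with the opposite sign, *COMP*, a matrix protein of cartilage and tendon, was at 2397 and 4389 CPM in SZCs and at 12390 and 4838 CPM in DZCs (log2 fold change -1.34, FDR 0.412 by edgeR's exact test, unadjusted p = 0.0303), without overlap between the zones. *FN1*, which encodes fibronectin, was at 1731 and 3163 CPM in SZCs and at 2014 and 9353 CPM in DZCs (log2 fold change -1.22, FDR 0.785). The number of these 23 genes called was 3 without SZC replicate 1, 8 without DZC replicate 1 (2 of them higher in DZCs) and 17 without DZC replicate 2 (again 2 higher in DZCs), where 0.529%, 6.68% and 21.5% of all tested genes were called.

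Among 23 genes of skeletal stem and progenitor cells, 18 were tested, with 1 higher in SZCs and 0 in DZCs (2.23% and 0.700% of all tested genes), and the median log2 fold change was 0.00. The gene called was *VCAM1*, an adhesion molecule of stromal cells, at 454 and 248 CPM in SZCs and at 18.9 and 42.6 CPM in DZCs (log2 fold change 3.51 ± 0.54 SE, FDR 1.8e-06 by edgeR's exact test). Of the 18, 9 had a log2 fold change above 0 and 9 below. *NGFR* (CD271), a surface marker of marrow stromal cells, had 91 and 175 counts in SZCs against 2 and 25 in DZCs (log2 fold change 3.19, FDR 0.0648 by edgeR's exact test). *ALCAM* went the other way without overlap, at 8.995 and 21.8 CPM in SZCs and at 25.3 and 47.9 CPM in DZCs (log2 fold change -1.25, FDR 0.431 by edgeR's exact test, unadjusted p = 0.0331). *NES* and *CXCL12*, which mark perivascular stroma, were highest in DZC replicate 2, at 18.2 and 15.0 CPM, and the number of *NES* counts was 9 and 102 in SZCs and 16 and 407 in DZCs. *LEPR*, *DPP4* and *PI16* were at 5 counts or fewer in every library. Without DZC replicate 1, 2 were called higher in SZCs and 3 higher in DZCs, and without DZC replicate 2, 9 were called, all higher in SZCs, against 6.68% and 21.5% of all tested genes in either direction.

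Of 32 ligands, receptors and relatives of the markers, 26 were tested, and 3 were higher in SZCs and 0 in DZCs (2.23% and 0.700% of all tested genes), with a median log2 fold change of 0.07. *ITGA9*, a subunit of an integrin that binds Tenascin-C, was at 39.3 and 33.7 CPM in SZCs and at 5.04 and 5.02 CPM in DZCs (log2 fold change 2.86 ± 0.37 SE, FDR 4.53e-10 by edgeR's exact test). It was 1 of 8 tested relatives and receptors of Tenascin-C and Periostin, of which 4 lay above 0 and 4 below. Other integrin genes among the 8 included *ITGB3* (log2 fold change -2.34, FDR 0.649 by edgeR's exact test), *ITGAV* (-0.06) and *ITGB5* (-0.07). *TGFBR3* encodes betaglycan, a co-receptor related to Endoglin, and was at 43.4 and 33.9 CPM in SZCs and at 2.36 and 10.9 CPM in DZCs (log2 fold change 2.53, FDR 0.0289 by the same edgeR test, but 0.299 without SZC replicate 1 and 0.138 under scaling by library totals). *GDF2*, which encodes BMP9, a ligand of the Endoglin complex, had 42 and 12 counts in SZCs against 0 and 0 in DZCs. With 3 counts per library as the floor, its mean level was at least 7.56-fold higher in SZCs (FDR 0.00371 by edgeR's exact test, but 0.339 without SZC replicate 1). It passed the filter on low counts only through the SZC libraries, so it had to differ between the zones to be tested at all. A stricter filter, requiring 2 libraries above 1 CPM, left it out of the test, and 2 genes were then called in place of 3. *TGFBI*, a relative of *POSTN*, was at 159.5 and 142 CPM in SZCs and at 41.1 and 77.5 CPM in DZCs (log2 fold change 1.34, FDR 0.0701). Among 7 matched genes of the adenosine pathway, in which CD73 makes adenosine, 5 were tested and 0 passed by edgeR's exact test, its quasi-likelihood test or DESeq2, with 0 of them at an unadjusted p-value below 0.05 in any of the 3. These tests called 2.93%, 0% and 3.09% of all tested genes, and 9.09%, 8.76% and 9.08% were at an unadjusted p-value below 0.05. The number called of the 26 was 1 without SZC replicate 1, 5 without DZC replicate 1 (2 of them higher in DZCs) and 10 without DZC replicate 2 (1 higher in DZCs), against 0.529%, 6.68% and 21.5% of all tested genes.

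Markers of mural and blood cells were read beside the PDGF receptors and the surface markers. All 8 mural genes were tested, and *KCNJ8* alone passed (2.23% of all tested genes were called higher in SZCs), at 9.77 and 4.26 CPM in SZCs against 1.43 and 0.538 CPM in DZCs (FDR 0.0256 by edgeR's exact test, but 1 without SZC replicate 1 and 0.0946 without SZC replicate 2). *CSPG4*, which cartilage cells express, made up most of their sum, and the other 7 summed to 34.8 and 117.7 CPM in SZCs and to 58.4 and 322 CPM in DZCs, with *RGS5*, a defining gene of pericytes, at 20 and 26 counts in SZCs and 0 and 9 in DZCs. *ACTA2* made up most of that sum in every library but SZC replicate 1. Of the 7, the log2 fold change was above 0 for 6 and below 0 for *ACTA2* (-1.80, FDR 0.779 by edgeR's exact test), and the median was 1.58. Of those 6, *RGS5* passed the filter on low counts only through the SZC libraries, so its sign was set by that filter. The 8 blood genes summed to 19.7 and 32.1 CPM in SZCs and to 6.97 and 14.2 CPM in DZCs, with 0 of the 5 tested past the threshold by edgeR's exact test, its quasi-likelihood test or DESeq2 (2 at an unadjusted p-value below 0.05 in each) and *PTPRC*, the leukocyte marker CD45, at 14 counts or fewer in every library. Of all tested genes these tests called 2.93%, 0% and 3.09%, and had 9.09%, 8.76% and 9.08% at an unadjusted p-value below 0.05. All 5 tested blood genes had a log2 fold change above 0, with a median of 1.38. The part of these cells in the marker levels was not tested.

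**Figure D4:**
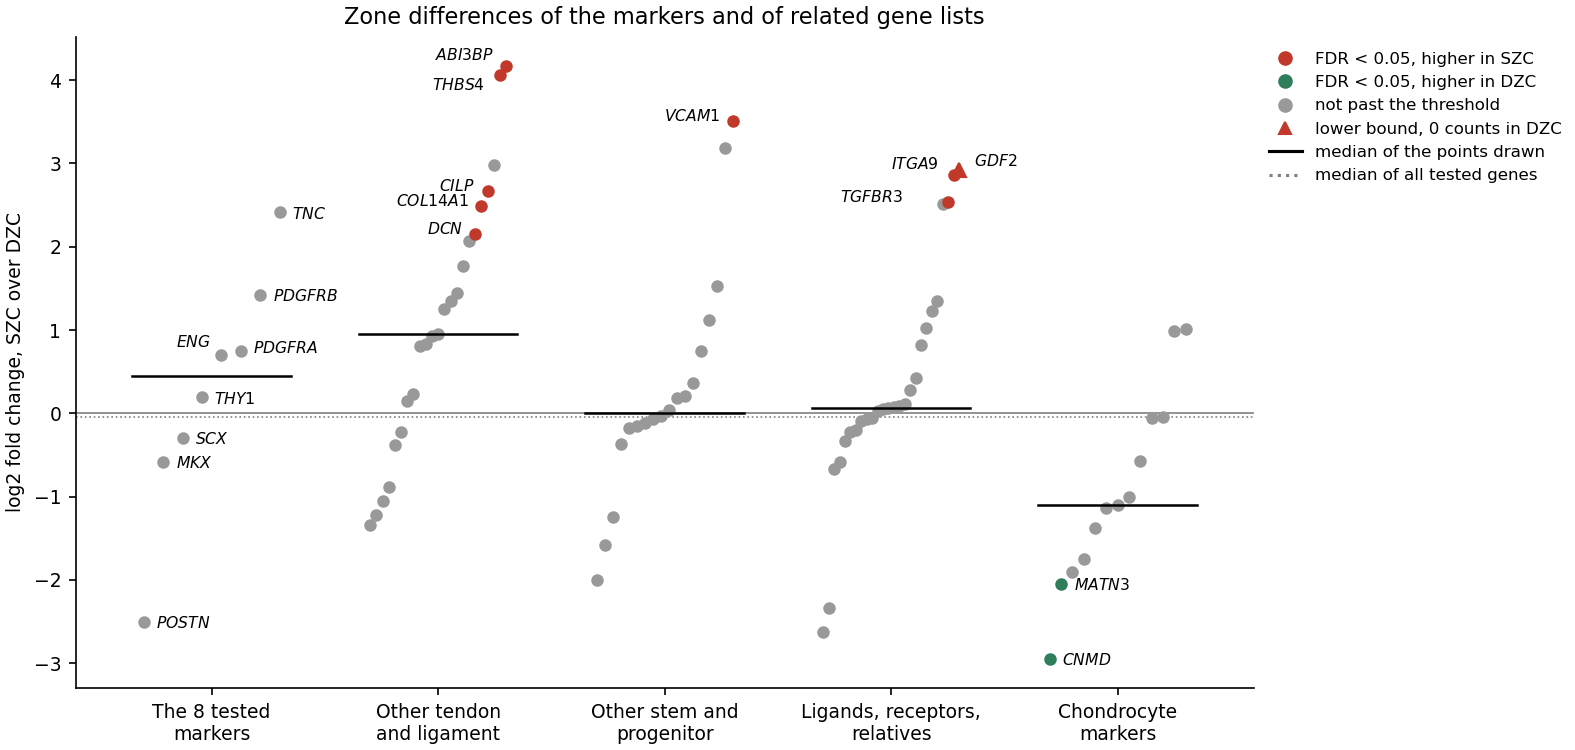
Log2 fold change of SZCs over DZCs for the tested markers, for 3 lists of related genes and for 13 chondrocyte markers, with genes past the FDR threshold in red (higher in SZCs) or green (higher in DZCs), a triangle for the lower bound of *GDF2* and a line for each median. No marker is coloured, and the median of the tendon and ligament list, 0.95, lies above the median of all tested genes (dotted, -0.04).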

How the data were processed

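RNA-Seq libraries were prepared with an ultra-low-input kit and sequenced as single-end reads. The authors aligned reads with STAR 2.5.2b to the cow genome (Ensembl build UMD 3.1) and deposited whole-number counts per gene, without normalization and without regard to strand. A second deposited table holds the authors' own comparison (fold changes and FDR for 320 genes), and only its gene names were used. ATAC-Seq was not analysed here.

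Columns were matched to samples by name. The analysis used edgeR 4.0.16 (R 4.3.3) with filterByExpr, TMM scaling, estimateDisp and the exact test, which the study's methods name, with Benjamini–Hochberg adjustment over all tested genes. Standard errors and 95% intervals follow from the negative binomial model with gene-wise dispersion. Ratios between single libraries used counts plus 0.5. No libraries were duplicates: replicates differed by far more than sampling noise (chi-square per degree of freedom 65.6 and 313). p-values measure only the spread between these libraries. The 10 markers and all lists were chosen with earlier results of these data known, and the genes named are all markers, the called genes of each list and a few others that show a list's level. Alternatives were edgeR's quasi-likelihood test with and without a replicate block, DESeq2 1.42.0, 2 other filters, 2 other scalings, another dispersion estimate and leaving out each library. The scripts were tested on simulated data. Genome coordinates and gene sequences of the authors' build were not used here.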

Additional observations from a re-analysis of the deposited data

How the results depend on the processing

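Without a replicate block, edgeR's quasi-likelihood test called 0 genes in all (1126 at an unadjusted p-value below 0.05), and so 0 of the tendon and ligament genes, 0 of the stem and progenitor genes and 0 of the ligands, receptors and relatives (6, 2 and 5 at an unadjusted p-value below 0.05). DESeq2 and common then gene-wise dispersion each called 2 stem and progenitor genes, against 1, and 397 and 389 genes in all, against 377. The cause was not tested. Under scaling by library totals, 86.7% of the genes called were higher in SZCs, against 76.1%. Same-numbered libraries deviated from their zone means with a correlation of 0.42 across genes, which are not independent replicates, and with 2 pairs this does not establish a pairing. With the replicate block, the quasi-likelihood test called 347 genes, against 377 by the exact test, with 2 stem and progenitor genes and 1 marker, *POSTN* (log2 fold change -1.90, FDR 0.0417), among them.

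Leaving out each library in turn gave from 68 to 2768 genes called, from 0 to 4 markers, from 3 to 17 tendon and ligament genes, from 1 to 9 stem and progenitor genes and from 1 to 10 ligands, receptors and relatives. Such a fit takes its spread from the zone that keeps both libraries. The log2 fold change then ranged from -0.75 to 0.24 for *SCX*, from -4.84 to 1.30 for *POSTN* and from -0.92 to 1.15 for *THY1*, and its sign held for the other 5 tested markers. With 2 libraries per zone, differences of the size seen between the DZC libraries limit what can be called.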
